A study of Mus musculus with 2 samples.

Results

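The B cell receptor signalling chain was described here as 33 genes, 8 of them encoding surface proteins and 25 encoding intracellular ones. The members were taken from a list of receptor, coreceptor, kinase, adaptor and brake genes, and a probe counted for a gene when the RefSeq accession the array gives it belonged to that gene. In this way 56 of 41163 gene probes matched the 33 members, out of 17302 genes that could be named in all. Mouse hybridoma cells labelled 1H5F9, a B cell and myeloma fusion of the kind grown to make antibody, received either no BSP-II (0 µg/ml) or 5 µg/ml of it for 4 h. BSP-II is a peptide of the bursa of Fabricius, the avian organ of B cell development. Both groups had the same medium with serum. Their RNA was labelled with Cy3 and read in 1 colour, with 1 array for each dose. The labels describe a single hybridoma, so the values speak of that line alone, and the second of the independent experiments named in the design text was not analysed here.

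The B cell receptor is a membrane immunoglobulin that signals through a pair of chains, Cd79a and Cd79b, whose cytoplasmic tails are phosphorylated by the Src-family kinases Lyn and Blk. The kinase Syk docks there and phosphorylates the adaptor Blnk, on which Btk and Plcg2 meet. Plcg2 then opens the calcium and NFAT route, the protein kinase C, Bcl10 and Malt1 route to NF-kB, and, with Grb2 and Sos1, the Ras route. Cd22, Cd72 and Fcgr2b recruit phosphatases such as Ptpn6 (SHP-1) and Inpp5d (SHIP-1) that damp the signal. Plasma cells secrete antibody, and much of the B cell surface programme is silenced in them as they form.

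With 1 array for each dose, no difference below has a replicate check and no test could be made. "Higher" and "lower" describe these arrays. Each signal is the scanner software's background-subtracted brightness. Differences are log2 values of BSP-II minus untreated after each array was divided by its own 75th percentile, 309 without and 356 with BSP-II. A gene whose signal grew by less than that ratio therefore has a difference below 0. A gene counted as measured when its brightest probe was flagged as well above background at both doses. The lowest signal so called was 11.8 without and 7.66 with BSP-II. Fewer cells of a type and less RNA per cell cannot be told apart in such bulk RNA.

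The labelled cell type was checked against marker genes. All 12 plasma cell markers, among them Sdc1, Prdm1 and Jchain, were well above background on both arrays, with signals of 294 to 150869 on the untreated array. Their summed signal was 259181 without and 274932 with BSP-II. Of 11 B cell markers with a probe, 9 were well above background on both arrays and Pax5, the factor that maintains B cell identity, on neither. The summed signals of the B cell list were 193152 and 208213. T cell markers numbered 8 of 11 on both arrays, with summed signals of 857 and 910, and 3 of them, by the chosen probe, lay over 5 times the lowest detected signal on both arrays. Myeloid markers (5 of 8, sums 217 and 268, Lyz2 and Csf3r on neither array), NK cell markers (1 of 6, sums 50.6 and 52.4) and fibroblast markers (5 of 8, sums 136 and 151) had no chosen probe that high on both arrays. Single chosen probes, such as that of Csf1r at 104 on the BSP-II array, passed that limit on 1 array. Another probe of Csf1r, at 73.5 and 50.2, passed it on both.

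In these cells most genes of the receptor chain were measured, some of them near background, and the measured ones differed little with BSP-II. Of the 33 members, 31 were measured on both arrays, beside 12855 of the 17302 named genes. These were all 8 surface members and 23 of the 25 intracellular ones. Of them, 6 lay under 5 times the lowest detected signal of the untreated array: Cd22, Cd72, Cd79a, Cr2, Nfatc2 and Prkcb. No member was 1.5-fold higher or 1.5-fold lower, where 1.21% of the 12855 measured genes were that much higher and 4.83% that much lower (6.04% either way). Of the members, 19 lay in the brighter part of the genes, at or above the median level, where 1.26% differed that much, and 12 in the dimmer part, where 10.8% did. No member was 2-fold different either, beside 0.202% of genes higher and 1% lower. Within 1.2-fold lay 28 of the 31 members, beside 73.3% of all genes. The members' median difference was −0.04, and that of all genes was −0.03. The range of members ran from −0.29 for Cd79a to 0.38 for Ptpn6.

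**Figure D1:**
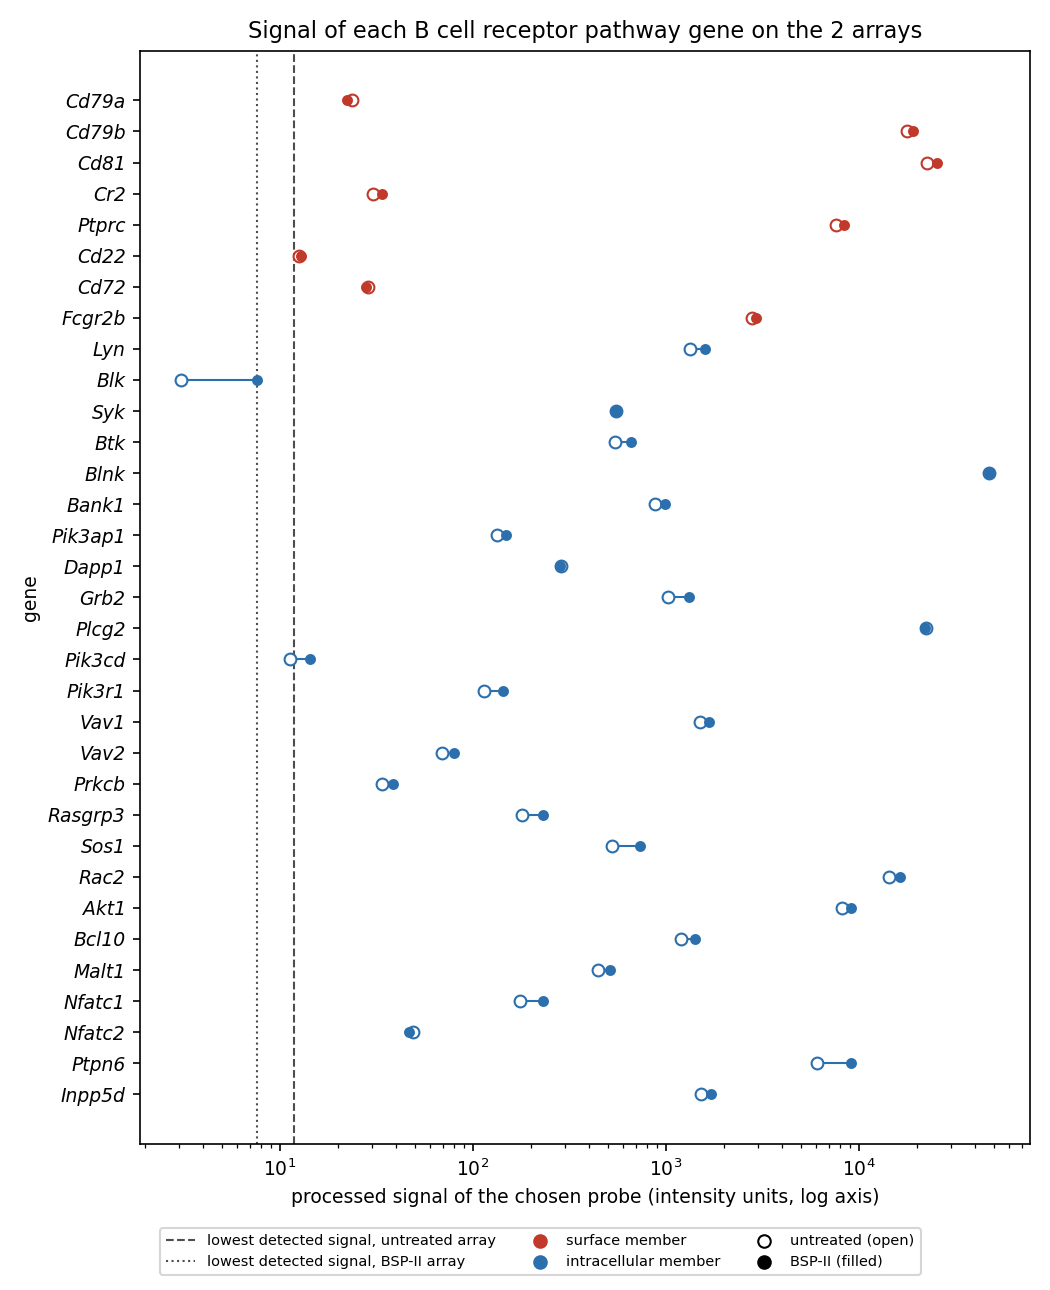
Processed signal of the chosen probe of each of the 33 members on a log axis, open circles for the untreated array and filled circles for the BSP-II array, surface members in red, intracellular ones in blue, and lines at the lowest detected signal of each array (11.8 dashed, 7.66 dotted). Apart from Blk the circles of a pair lie close together, and Cd79a, Cr2, Cd22 and Cd72 sit near the lines.

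Sequence windows before the gene starts were taken from RefSeq (GRCm38.p6) for 27 of the 33 members by symbol, over the 250 bases upstream of each annotated start. They were searched for short patterns, and the shares of member windows with each are set beside those of all windows. Windows of Blk, Cd79b, Lyn, Malt1, Nfatc1 and Rac2 were not used here. A total of 4 windows are printed: Cd79a as the lowest member, Ptpn6 as the highest, Blnk because it holds the octamer, and Cd72, an inhibitory receptor, because it holds the longer ETS form described next. Capitals mark the ETS core GGAAGT, its PU.1-type form GAGGAAGT, which contains the core, and the octamer ATGCAAAT. Each was searched on both strands, and the sequences run 5′ to 3′ on the gene's strand. The Cd79a window lies at chr7:24897247-24897496 (plus strand), that of Cd72 at chr4:43454627-43454876 (minus strand), that of Blnk at chr19:40994222-40994471 (minus strand) and that of Ptpn6 at chr6:124738710-124738959 (minus strand).
Cd79a: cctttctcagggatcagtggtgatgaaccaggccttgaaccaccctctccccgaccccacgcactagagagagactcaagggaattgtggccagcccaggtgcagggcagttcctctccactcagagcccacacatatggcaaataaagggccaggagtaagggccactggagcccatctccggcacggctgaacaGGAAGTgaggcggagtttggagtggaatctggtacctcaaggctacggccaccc
Cd72: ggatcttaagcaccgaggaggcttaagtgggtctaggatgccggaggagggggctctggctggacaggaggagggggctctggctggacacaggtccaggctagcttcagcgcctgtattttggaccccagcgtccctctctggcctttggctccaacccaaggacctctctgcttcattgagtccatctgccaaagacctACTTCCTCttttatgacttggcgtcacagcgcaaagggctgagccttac
Blnk: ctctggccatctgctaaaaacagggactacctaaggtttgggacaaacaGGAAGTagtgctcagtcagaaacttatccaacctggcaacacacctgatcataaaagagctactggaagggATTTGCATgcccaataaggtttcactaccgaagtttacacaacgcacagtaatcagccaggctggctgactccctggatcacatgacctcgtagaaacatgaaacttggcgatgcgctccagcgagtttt
Ptpn6: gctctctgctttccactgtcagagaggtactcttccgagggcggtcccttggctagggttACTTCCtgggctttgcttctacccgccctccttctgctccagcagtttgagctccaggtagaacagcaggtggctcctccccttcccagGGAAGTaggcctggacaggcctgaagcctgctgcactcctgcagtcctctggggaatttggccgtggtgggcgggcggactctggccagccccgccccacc

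The Cd79a window holds 1 ETS core, with its first base at −54 from the start. The Cd72 window holds the PU.1-type form at −49, read on the opposite strand. The Blnk window holds the octamer, the element that OCT factors bind in immunoglobulin promoters, at −130 on the opposite strand and an ETS core at −201. In the Ptpn6 window ETS cores lie at −190 on the opposite strand and at −101 on the gene's strand. These matches describe letters and not bound sites.

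Across the 36 member windows, the ETS core was found in 17 (47.2%), from 16 genes, beside 19.7% of all 32851 windows of that length. The PU.1-type form was found in 5 (13.9%), beside 2.44%, and its genes were Cd72, Grb2, Inpp5d, Rasgrp3 and Vav1. The E-box CAGGTG was found in 14 (38.9%), beside 17.2%. The octamer was in 2 (5.56%, Blnk and Prkcb), beside 1.60%. Member shares were nearer to those of all windows for the other patterns. These were the EBF-type CCCNNGGG (13.9% beside 11.8%), the kB-type GGGNNNTNC (47.2% beside 41.2%), the IRF-type GAAANNGAA (8.33% beside 7.13%), the GC box GGGCGG (38.9% beside 32.7%) and the TATA box TATAAA (16.7% beside 12.4%). The CRE TGACGTCA was in none, beside 1.55%. Some genes have more than 1 window, and these shares were not tested.

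The signalling chains of the receptor stood at very different distances from background. Cd79b, one of the chains, gave 17742 untreated and 19145 with BSP-II, a difference of −0.10. Cd79a, its partner, gave 23.7 and 22.3, near the lowest detected signals, with a difference of −0.29. The scanner software's own error for that difference was 0.27. Each chain rested on 1 probe and 1 spot, and probes of different genes do not give comparable levels. Around the Cd79a spot, no more than 3 rows or columns away, lay 2 spots with 2-fold or more extra signal after BSP-II, and their part in its value was not tested.

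Of the coreceptor, which lowers the threshold for receptor signalling, Cd81 was far above background and Cr2 near it. Cd81, a tetraspanin, gave 22534 and 25557, with a difference of −0.02. Cr2, the complement receptor, gave 30.6 and 33.7, with a difference of −0.06. Its other probe was well above background on the BSP-II array only. Ptprc (CD45), the surface phosphatase that keeps Src-family kinases ready to fire, was measured by 10 spots of 1 probe. These gave 7641 and 8419, and a difference of −0.07 with an SD of 0.04 between spots. Its second probe gave −0.09, and a further one, near background at 15.3 and 25.4, gave 0.52.

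The inhibitory receptors of the surface were all slightly lower. Fcgr2b, the low-affinity IgG receptor that shuts down the B cell receptor when antigen comes in immune complexes, had 10 spots with means of 2781 and 2937. Its difference was −0.13 with an SD of 0.03 between spots, and its other probes gave 0.02 and −0.23. Of the sialic acid receptor Cd22 the signal was 12.6 and 13.0, barely above the lowest detected signal, and the difference −0.16 with a scanner error of 0.38. Cd72, a C-type lectin that carries an inhibitory motif, gave 28.6 and 27.9 and a difference of −0.24, with an error of 0.25. The further probes of Cd22 and Cd72 were well above background on neither array.

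**Figure D2:**
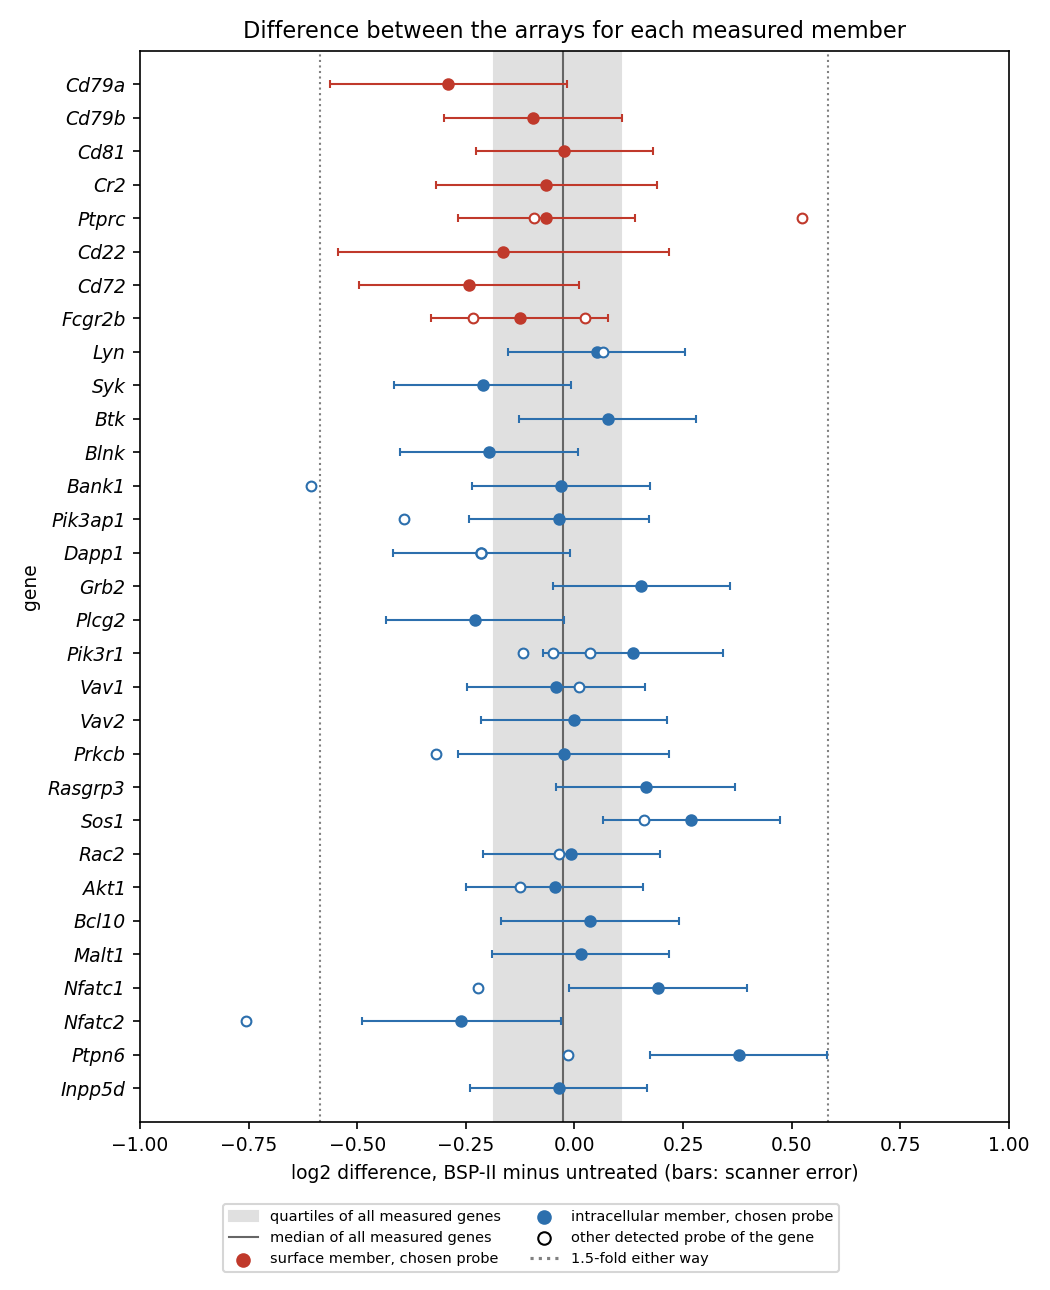
Log2 difference of BSP-II minus untreated for the 31 measured members, with filled circles for the chosen probe and its scanner error, open circles for other detected probes, a grey band for the quartiles of all measured genes (−0.18 to 0.11), a line at their median (−0.03) and dotted lines at 1.5-fold. Every filled circle lies inside the dotted lines, while an open circle of Bank1 and of Nfatc2 lies outside.

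Among the kinases, Syk was lower and Lyn and Btk were slightly higher. Syk, the kinase that binds the phosphorylated receptor tails, gave 554 and 551, a difference of −0.21 from 1 spot. Lyn, which starts and also restrains the signal, gave 1341 and 1602, a difference of 0.05, and its other probe gave 0.07. Btk, the kinase that activates Plcg2, had 9 spots with means of 544 and 662 and a difference of 0.08, with an SD of 0.03. Blk, another Src-family kinase, was well above background on neither array (signals of 3.07 and 7.60), so no fold is given.

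The adaptors lay on both sides of 0. Blnk (SLP-65), the scaffold that Syk phosphorylates, gave 47148 and 47430 and a difference of −0.20. Dapp1, an adaptor that reads the lipid product of PI3K, gave 287 and 285, with differences of −0.21 at both of its probes. Bank1, a scaffold for Lyn and calcium release, gave 881 and 994 and a difference of −0.03, but its other probe, at 47.4 and 35.9, gave −0.61. Pik3ap1 (BCAP), which brings PI3K to the receptor, gave 133 and 149 and a difference of −0.04, with −0.39 at its other probe. Grb2, the adaptor that carries Sos1, gave 1029 and 1320 and a difference of 0.15. Bank1 and Pik3ap1 thus differed between their own probes by more than their chosen probes differed between the arrays.

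Plcg2, the phospholipase at the head of the calcium route, gave 22393 and 22024, the lowest difference of the effectors at −0.23. The values of Syk, Blnk and Plcg2 moved with the processing. Syk was at −0.08 under normexp and without background subtraction, and Blnk at −0.07 with the local median of the array subtracted. After loess scaling, which removes any trend with brightness, Syk was at −0.21, Blnk at −0.13 and Plcg2 at −0.18. In the authors' deposited table, which is centred differently, they were at −0.09, −0.07 and −0.11, where the median of all genes was 0.10. Each of these genes was read by 1 spot of 1 probe on each array.

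Among the genes that lead to Ras, Sos1, Rasgrp3 and Grb2 had differences above 0. Sos1, the exchange factor for Ras, gave 529 and 734 and a difference of 0.27, with 0.16 at its other probe. Its spot too had 2 such neighbours, whose part in the result was not tested. After the local median of the array was subtracted, its difference was 0.24. Rasgrp3, an exchange factor activated by diacylglycerol, gave 180 and 232 and a difference of 0.16. With Grb2 at 0.15, these 3 genes lay above the median of all genes under every alternative that measured them. Pik3r1, the regulatory subunit of PI3K, was at 0.14 by its chosen probe (114 and 144), and its other probes gave 0.04, −0.05 and −0.12.

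The remaining effectors lay close to the median of all genes. Akt1, the kinase downstream of PI3K, had 10 spots with means of 8193 and 9152 and a difference of −0.05, with an SD of 0.08. Rac2, a small GTPase of blood cells, gave 14322 and 16431 and a difference of −0.01, with −0.03 at its other probe. The exchange factor Vav1 gave 1499 and 1678 and a difference of −0.04, with 0.01 at its other probe. Vav2, a relative of Vav1, gave 69.1 and 79.6, with no difference to 2 decimals. Prkcb, the protein kinase C of B cells, gave 34.1 and 38.6 and a difference of −0.02, with −0.32 at its other probe. Pik3cd, the catalytic PI3K subunit of leukocytes, was well above background on the BSP-II array only, with signals of 11.3 and 14.4. Its difference was 0.14 with a scanner error of 0.41, and no fold is given since it was not detected on the untreated array.

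**Figure D3:**
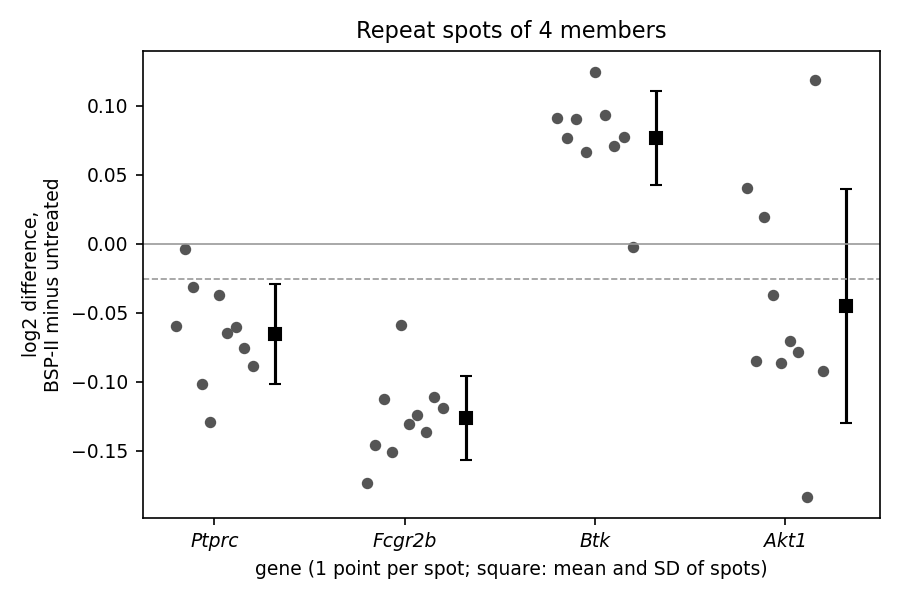
Log2 difference of BSP-II minus untreated at each spot of the 4 members whose probe was printed repeatedly, with squares for the mean, bars for the SD over spots, a solid line at 0 and a dashed line at the median of all genes. The spots of Fcgr2b all lie below 0 (−0.17 to −0.06), 8 of the 9 spots of Btk lie above it, and those of Akt1 run from −0.18 to 0.12.

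The endpoints of the chain went both ways by small amounts. Bcl10 and Malt1, which join to activate NF-kB, were at 0.04 (1197 and 1415) and 0.01 (444 and 517). Nfatc1, a calcium-driven transcription factor, gave 176 and 232 and a difference of 0.19, but its other probe, named for a different transcript, gave −0.22 at signals of 14.0 and 13.8. Its relative Nfatc2 gave 48.8 and 47.0 and a difference of −0.26, with −0.76 at its second probe, where the signals were 24.0 and 16.4. A further probe, named for a different transcript, was well above background on the BSP-II array only (4.67 and 8.78), so no fold is given. These probes lay near background, and the scanner error of the value of −0.76 was 0.34.

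The intracellular brakes held the highest member. Ptpn6, the phosphatase that inhibitory receptors recruit, gave 6093 and 9128, a difference of 0.38 (1.30-fold) with a scanner error of 0.20. Its second probe, named for another transcript of the gene, gave 240 and 273 and a difference of −0.02. Which transcripts each probe reads was not analysed here. Under the alternatives its difference from the median of all genes ranged from 0.21 to 0.47, the lowest where both probes were combined by their median. Inpp5d, the lipid phosphatase of the pathway, gave 1528 and 1717 and a difference of −0.04.

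The comparison of surface with intracellular members showed a small gap. The median difference of the 8 surface members was −0.11 and that of the 23 intracellular ones −0.01, a gap of −0.10. All 8 surface members lay below 0, as did 13 of the 23 intracellular members, beside 55.3% of all genes. This count follows the scaling: with each array scaled to its median, which adds 0.12 to every value, only 4 of 8 surface and 5 of 23 intracellular members lay below 0. Against the median of all genes, below which 50% of them lie by construction, 7 of 8 surface members and 10 of 23 intracellular members were lower, and median scaling left both counts as they were. Under quantile scaling, loess scaling and normexp, 6 of 8 surface members and 9 of 23 intracellular members were below it. Without background subtraction the counts were 6 of 8 and 7 of 23.

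The gap was below 0 under all 14 alternatives, which ranged from −0.17 to −0.05, and between −0.12 and −0.09 when any 1 member was left out. These alternatives reuse the same 2 arrays and are not repeats. Some of them could hardly move the gap. Median scaling adds the same constant to every difference and left it at −0.10. The authors' table is a constant shift for nearly all probes, and did not hold Cd22. The settings without a filter on dim probes and with positive and significant spots left the surface median at −0.11. Of the 8 surface members 4 lay under 5 times the lowest detected signal of the untreated array, against 2 of the intracellular members (Prkcb and Nfatc2). Dimmer genes, those under the median level, had a median of −0.08 over all genes, and brighter ones 0.00. Among brighter genes alone, the 4 surface members (Cd79b, Cd81, Ptprc and Fcgr2b) had a median of −0.08 and the 15 intracellular ones −0.01. The 4 dimmer surface members had −0.20 and the 8 dimmer intracellular ones −0.01.

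**Figure D4:**
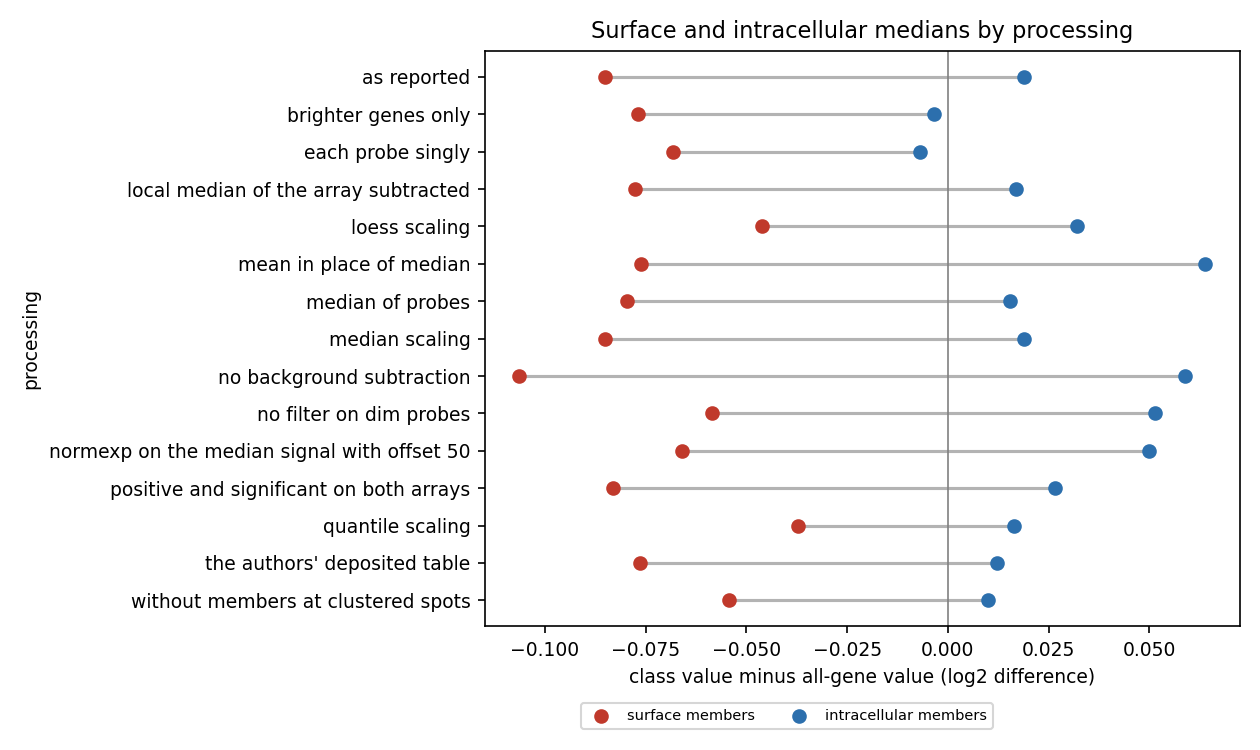
Median log2 difference of surface members (red) and intracellular members (blue), each minus the median of all genes, as reported and under each alternative (means minus the mean of all genes in the row named for means). The surface value lies to the left of the intracellular value in every row.

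**Figure D5:**
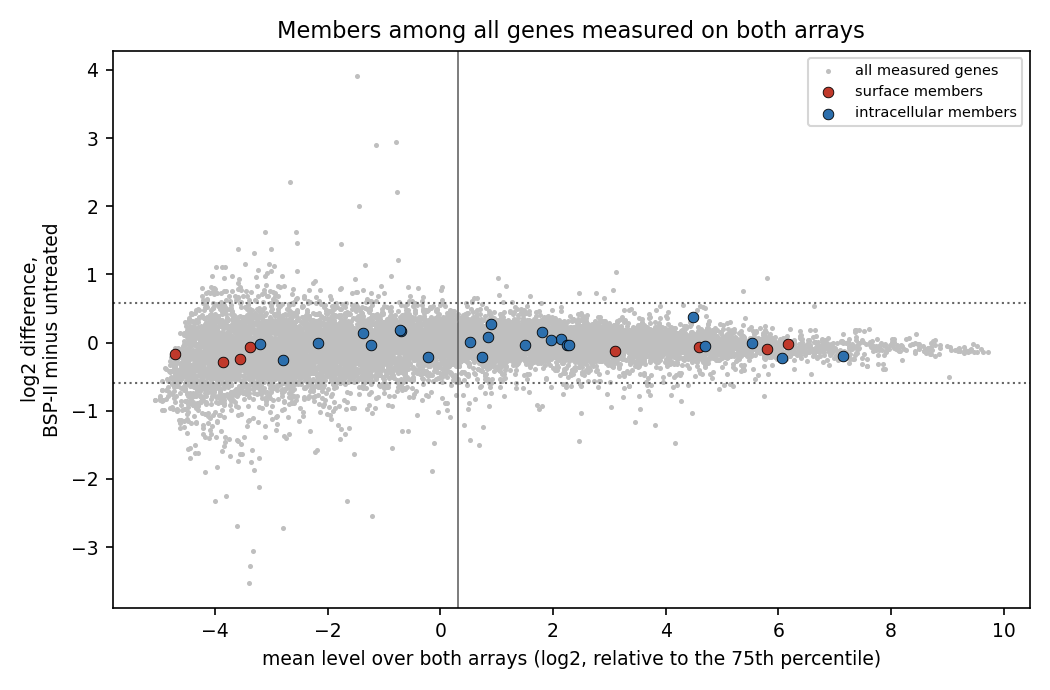
Log2 difference of BSP-II minus untreated against the mean level of each of the 12855 measured genes (grey), with surface members in red, intracellular members in blue, dotted lines at 1.5-fold and a vertical line at the median level. All 31 members lie between the dotted lines, at dim and bright levels alike.

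The scanner software's error and repeat spots give only part of the error of a single member. Neither holds differences between cultures, labellings or hybridizations. For the brighter members the software's error was 0.20, whatever the gene. The difference exceeded the scanner software's error for 7 of 31 members (Cd79a, Syk, Dapp1, Plcg2, Sos1, Nfatc2 and Ptpn6), beside 33.3% of all genes. Repeat spots of 1 probe had a median SD of 0.08 over 165 probes. For 15 members with at least 2 detected probes, the median gap between the chosen probe and the next was 0.11, and it was 0.13 over 4032 genes. The probes of 9 of these 15 members (60.0%) all had the same sign, beside 59.7% of all such genes. These 9 were among the 13 intracellular members with such probes, and neither of the 2 surface members was among them. By single probes, 2 of the 50 detected member probes were 1.5-fold different, beside 5.78% of probes.

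Sides of the median of all genes were also counted over 7 alternatives that cover every gene. As reported and under each of them, 9 members were below it, beside 36.3% of all genes: Cd79a, Cd22, Cd72, Fcgr2b, Syk, Blnk, Dapp1, Plcg2 and Nfatc2. Above it in the same way were 11, beside 35.3%: Lyn, Btk, Grb2, Pik3r1, Rasgrp3, Sos1, Rac2, Bcl10, Malt1, Nfatc1 and Ptpn6. The shares of members, 29.0% and 35.5%, were near those of all genes.

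Other genes of the pathway were taken from a list of 88 drawn from textbook knowledge, of which 83 had a probe and 78 were measured on both arrays. None was 1.5-fold higher and 1 was 1.5-fold lower, beside 1.21% and 4.83% of all measured genes. Their median was 0.00. The highest was Prkcd, a protein kinase C that restrains B cell expansion, with signals of 5050 and 8541 and differences of 0.55 and 0.56 at its probes. Inppl1 (SHIP-2), a relative of Inpp5d, gave 412 and 662 and a difference of 0.48. Dok3, an inhibitory adaptor of the receptor, gave 1945 and 2917 and a difference of 0.38. Pirb, an inhibitory receptor, gave 36.5 and 52.5 and a difference of 0.32, with 0.39 at its other probe.

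At the low end stood Mapk8 (JNK1), a stress-activated kinase, with means of 27.4 and 15.7 over 9 spots near background and a difference of −1.01. Ifitm1, a small membrane protein, gave 383 and 297 and a difference of −0.57. Ptpn22, a phosphatase that limits antigen receptor signalling, gave 116 and 97.4 and a difference of −0.46. Cd5, a surface brake of the receptor, gave 90.6 and 83.9 and a difference of −0.32. Genes known as brakes stood at both ends of the list.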

How the data were processed

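Intensity values were deposited by the authors as scanner files. The submitters' processing notes name Agilent Feature Extraction 10.5.1.1. The files hold each spot's median brightness and local background and a background-subtracted processed signal with its error, per the file headers. The deposited flags (unit "other") mark control, outlier, saturated and detected spots. No spot of a gene probe was saturated. The authors' value table, on a log2 scale, holds 23296 probes, with a median of 2.88 in the untreated column and 2.99 in the BSP-II column. For nearly all probes it is the log2 processed signal shifted by −4.85 (untreated) or −4.94 (BSP-II). Scale and direction thus follow from the values, while the reason for the shift stays unknown.

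Control spots and 189 outlier spots were left out, log2 processed signals were reduced by each array's 75th percentile, and spots of 1 probe were averaged. A probe was well above background when most of its spots carried that flag. Probes were named by unversioned accession from a RefSeq gene table (GRCm38.p6), used for names only since the grid was built on another build. Of 41163 probes, 25091 (61.0%) matched. The probe with the highest mean level represented its gene.

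The members, classes and lists were chosen with earlier results of these data known. All members are named, and of the other pathway genes the 4 highest and 4 lowest. Spots were called clustered where, in the 3 rows and columns around them, at least 2 neighbours differed 2-fold or more one way. The precision is limited by the number of arrays. Fold counts and list medians were checked on simulated differences, with noise smaller than the real SD of 0.31 over all genes. Scaling was checked with a constant factor on 1 array. Probe naming, detection and probe choice were not tested in this way. Analysis ran in Python 3.11.15 with scipy 1.17.1, numpy 2.4.6, matplotlib 3.10.9, statsmodels 0.14.6 and pandas 2.3.3.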

Additional observations from a re-analysis of the deposited data

How the results depend on the processing

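No paired analysis was possible because the groups share only replicate number 1. With each array scaled to its median, the median difference was 0.086 for all members, 0.011 for surface members and 0.115 for intracellular members. In the authors' deposited table, which measured 30 members, the same medians were 0.089, 0.028 and 0.116. Quantile scaling gave −0.028 for surface members. Relative to the median of all genes, which was 0.10 under both median scaling and the authors' table, surface members stayed on the low side. The gap between classes kept its direction under all 14 alternatives. Median scaling and the authors' table shift nearly all values of an array alike, so they could hardly change it. With 1 member left out at a time, the gap ranged from −0.12 to −0.09 and the median of all members from −0.036 to −0.034. Without a filter on dim probes, and with positive and significant spots in place of well above background, 1 member (Blk, not well above background on either array) was at least 1.5-fold higher. With each probe counted singly, 2 probes were at least 1.5-fold lower, those of Bank1 and Nfatc2. Leaving out the 5 members at clustered spots (Btk, Cd79a, Fcgr2b, Sos1 and Vav1), an alternative chosen after seeing the data, gave a gap of −0.06. Normexp was run on the median signal, with an offset of 50. Signal over background limits Cd22, Cd72, Cd79a, Cr2, Prkcb and Nfatc2 most.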
